A study of Mus musculus with 18 samples.

Results

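Expression of Txnip, of the 4 genes of the same alpha-arrestin family that carry the Arrdc symbols 1 to 4, of thioredoxin (Txn1) and of the glucose sensor Mlxip was followed in mouse marrow-derived mesenchymal stem cells (MSC) by RNA-seq. These 7 genes were found by their symbols among the 54347 genes of the deposited table. The set was chosen by the measured response of Txnip to CK666 and cytochalasin D in untransfected cells, so those changes are given as a description without a test. The other 6 genes were taken for their family or their partnership with Txnip. All cells came from marrow of male C57BL/6J mice, and 18 libraries fell into 6 groups of 3. In the first experiment, cells were untreated (control) or were given CK666, which blocks the Arp2/3 complex and so the branching of actin filaments, or cytochalasin D (CytoD), which caps filaments. In the second, cells were transfected with control siRNA (siControl), with siRNA against Arp4 (siArp4), or with the Arp4 siRNA followed by CK666 (siArp4+CK666). All cells of the second experiment had thus been transfected, and none of the first. Cells given control siRNA and CK666 together were not analysed here. The study used a single primary line, made from the marrow of several mice, and described replicates as distinct preparations of each culture condition, so the spread between replicates is that between cultures and not between mice.

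Alpha-arrestins are adaptor proteins that bind membrane proteins and bring them to ubiquitin ligases of the Nedd4 family, which leads to endocytosis and breakdown of the cargo. Txnip, the best known of them, lowers glucose uptake by removing glucose carriers from the plasma membrane, and it binds reduced thioredoxin and inhibits it. Its transcription follows glucose supply: MondoA, the product of Mlxip, pairs with Mlx, enters the nucleus when glucose phosphates accumulate, and binds paired E-boxes called carbohydrate response elements. Arrdc4 is also a known MondoA target. In many cell types, Txnip is known as a brake on growth and on the use of glucose.

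The promoter windows of Txnip and Arrdc4 are shown because both genes rose under CytoD and both are known targets of MondoA. The sequences are the 250 bases before the RefSeq start on build GRCm38.p6, read 5′ to 3′ on the strand of the gene. For Txnip this is chr3:96557707-96557956 on the plus strand, and for Arrdc4 chr7:68749239-68749488 on the minus strand. Capitals mark matches to the motifs searched.
Txnip: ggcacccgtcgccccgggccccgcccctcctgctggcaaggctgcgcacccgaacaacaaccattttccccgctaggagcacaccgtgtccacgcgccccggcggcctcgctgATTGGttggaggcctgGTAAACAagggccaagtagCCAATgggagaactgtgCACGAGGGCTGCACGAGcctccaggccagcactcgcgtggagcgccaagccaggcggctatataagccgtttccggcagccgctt
Arrdc4: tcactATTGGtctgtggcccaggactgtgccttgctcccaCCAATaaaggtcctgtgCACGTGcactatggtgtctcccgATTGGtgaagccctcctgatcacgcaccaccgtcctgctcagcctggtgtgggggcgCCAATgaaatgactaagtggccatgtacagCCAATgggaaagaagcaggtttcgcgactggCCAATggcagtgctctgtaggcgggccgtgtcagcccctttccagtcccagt
The longest run of capitals in Txnip, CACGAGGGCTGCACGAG at -85 to -69 from the start, matched the paired E-box with 1 base of each E-box left free (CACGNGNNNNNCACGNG). That pattern was found in 15 of 32851 promoter windows of this length (0.0457%). The exact pair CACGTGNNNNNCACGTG was found in 0 windows. Txnip also held a CCAAT box on each strand, at -137 to -133 and at -102 to -98, and the FOXO motif GTAAACA at -121 to -115. Of all windows, 33.8% held CCAAT and 3.17% held GTAAACA. Arrdc4 held a single E-box, CACGTG, at -193 to -188, a motif present in 6.02% of windows, and 6 CCAAT boxes. All motifs were searched on both strands. CCAAT was also found 3 times in Arrdc2, 2 times in Mlxip and once in Arrdc3, the TATA motif TATAAA, held by 12.4% of windows, was found in Txn1, and none of these motifs was found in Arrdc1. A match of letters is a description and was not tested as a binding site.

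**Figure D1:**
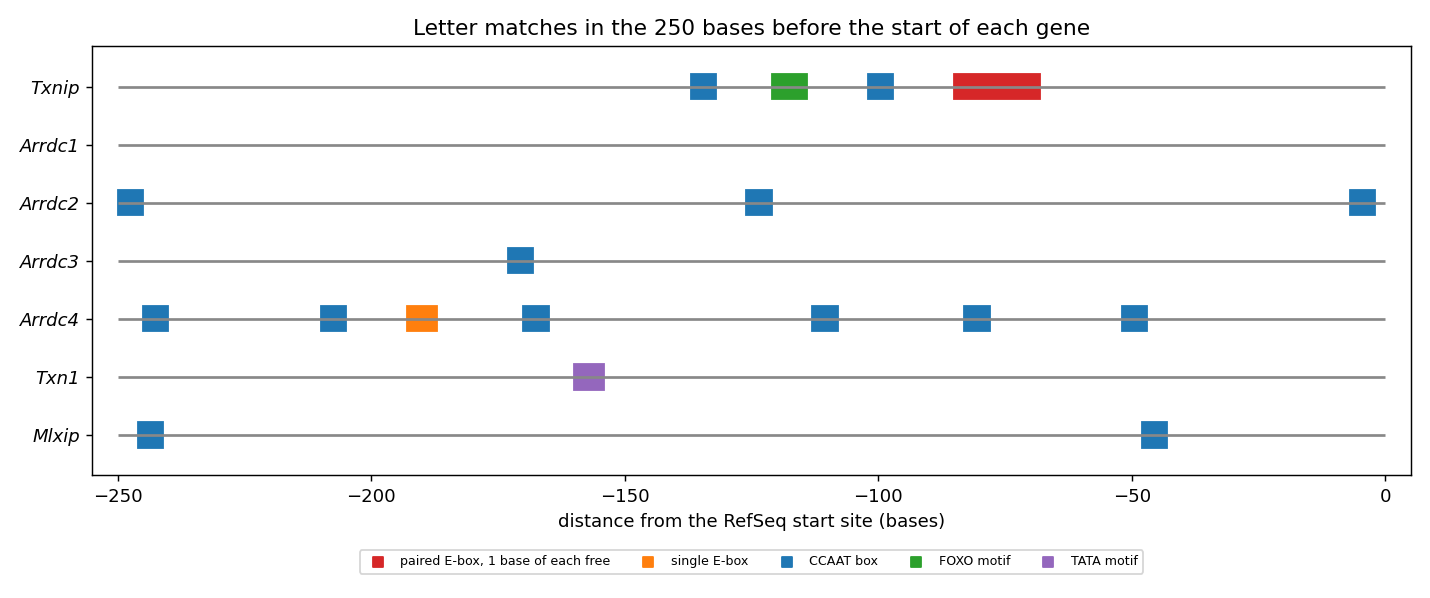
Positions of motif matches in the 250 bases before the RefSeq start of each of the 7 genes, with distance from the start in bases on the x axis and 1 line per gene. Coloured boxes are matches on either strand. Only Txnip among the 7 held the paired E-box with 1 base of each E-box free (at -85 to -69), and Arrdc4 held 6 CCAAT boxes and a single E-box.

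Libraries held between 18075610 and 24733212 estimated counts, and between 12563 and 13234 genes reached 10 counts in a library. All 7 genes had at least 70.5 counts in every library. Actl6a, the gene of Arp4, was at 4.66% of its siControl level in siArp4 and at 1.88% in siArp4+CK666, and its normalized counts did not overlap between siControl (720.1 to 1127) and the knockdown groups (9.52 to 57.2). Of 10 markers listed for mesenchymal stem cells, 8 reached 10 counts in all 3 libraries of every group except siArp4+CK666, where 7 did, and Thy1 was listed at 0 in all 18 libraries. Their summed level in CPM (counts scaled to the library total) was 3510 to 3680 in control, 2210 to 2610 in CK666, 7160 to 7200 in CytoD, 2870 to 5690 in siControl, 1750 to 1950 in siArp4 and 1560 to 1920 in siArp4+CK666. It was thus highest in CytoD and higher in control and siControl than in CK666 and the knockdown groups. Macrophage markers summed to between 7.37 and 19.6 CPM, endothelial markers to at most 1.26 with Cdh5 and Tie1 at 0, and erythroid markers to at most 0.444. Markers of mature fat cells, 4 genes of which Lep was at 0 throughout, summed to 34.4 to 43.6 CPM in CytoD, 12.6 to 22.8 in CK666, 2.94 to 5.83 in control, 5.52 to 13.6 in siControl, 0.206 to 1.01 in siArp4 and 6.51 to 10.1 in siArp4+CK666. The part of these stem cell and fat cell markers in the results below was not tested. In these bulk samples, fewer cells that express a gene and less RNA per cell cannot be told apart.

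One library stood apart. In siControl replicate 2, genes with exons under 1500 bases were high relative to genes of 6000 bases or more, with a difference of the median log2 ratio to the experiment mean of 1.27. The same difference was -0.67 in siControl replicate 1 and 0.41 in replicate 3. Among the 6 libraries of siArp4 and siArp4+CK666 it lay between -0.74 and 0.22. The 7 genes span a wide range of exon length, from 1051 bases in Txn1 through 3123 in Txnip to 8326 in Mlxip. Comparisons with siControl are therefore given for the 7 genes also with replicate 2 left out, with the length trend of each library removed, or with both changes.

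**Figure D2:**
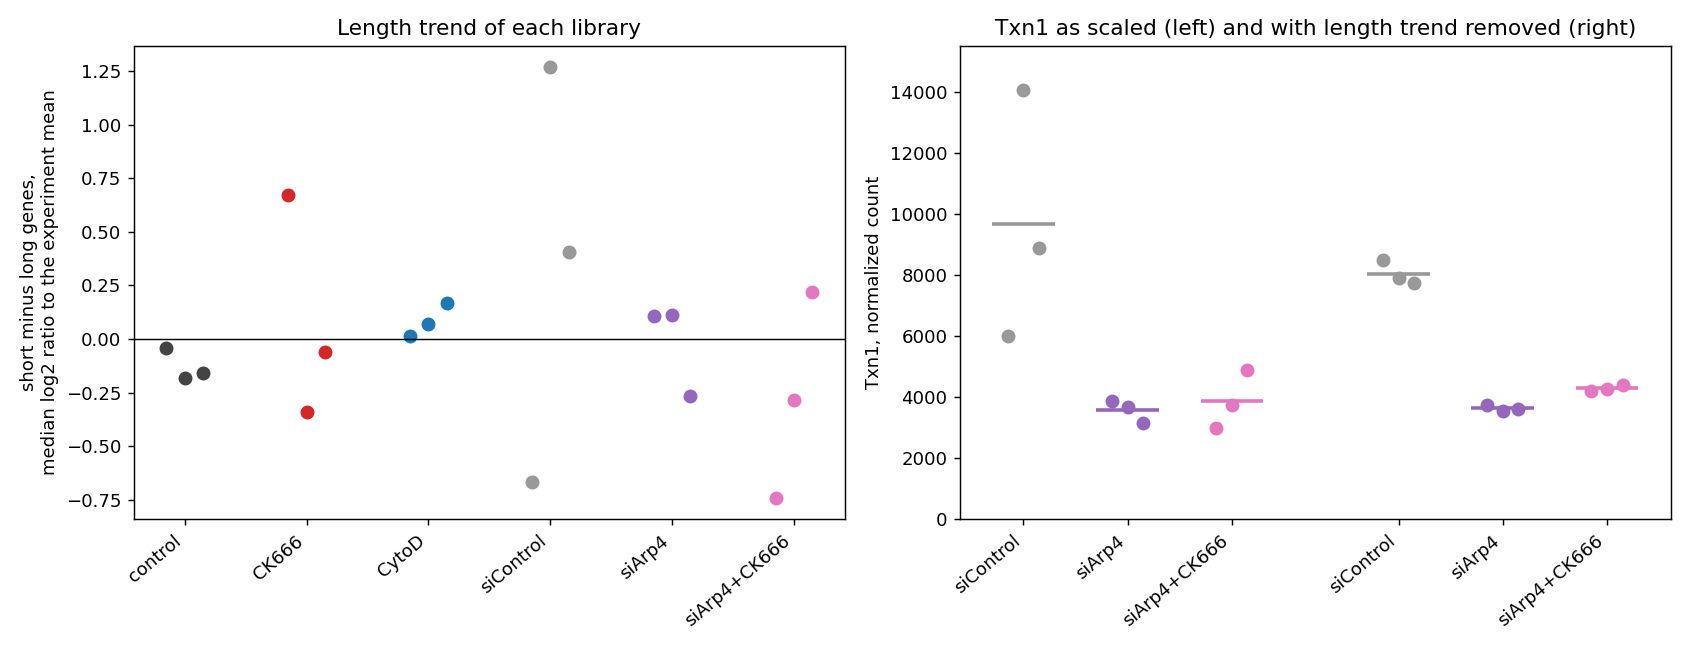
Left, the difference between short and long genes (median log2 ratio to the mean of the experiment) in each of 18 libraries by group. Right, normalized counts of Txn1, a short gene, in the second experiment as scaled and with the length trend of each library removed, with points for libraries and lines for group means. siControl replicate 2 lies highest on the left at 1.27, and the 3 siControl values of Txn1 close up from 6018 to 14070 down to 7731 to 8488 when the trend is removed.

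Per length, Txn1 was the most abundant of the 7 genes in every group, at 458.6 to 1069 TPM as group means (transcript abundance scaled by gene length and library), and Arrdc2 was at 4.95 to 9.54 TPM, the lowest mean in every group. Its lowest place was not firm, since Txnip was at 6.29 TPM in CK666 against 6.19 for Arrdc2, and with the length of the longest transcript Txnip was lower than Arrdc2 in CK666 (5.29 against 6.46) and Mlxip was lower in siControl (6.67 against 6.84) and siArp4 (5.70 against 6.15). The rank of Txnip among all genes shifted over a wide range. By TPM, Txnip ranked 1297 of 12166 genes with at least 10 counts in every control library, 561 of 12435 in CytoD and 9316 of 12025 in CK666. In the second experiment it ranked 374 of 12112 in siControl, 878 of 12436 in siArp4 and 5328 of 12111 in siArp4+CK666. The mean level of Txnip fell in the order siControl (392.3 ± 175.0 TPM, SD, n = 3), CytoD (259.0 ± 5.23), siArp4 (174.3 ± 14.2), control (124.5 ± 2.92), siArp4+CK666 (20.9 ± 1.11) and CK666 (6.29 ± 1.14). Only siControl and CytoD, neighbours at the top of that order, overlapped. Levels across the experiments are descriptive, since transfection and experiment cannot be told apart.

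**Figure D3:**
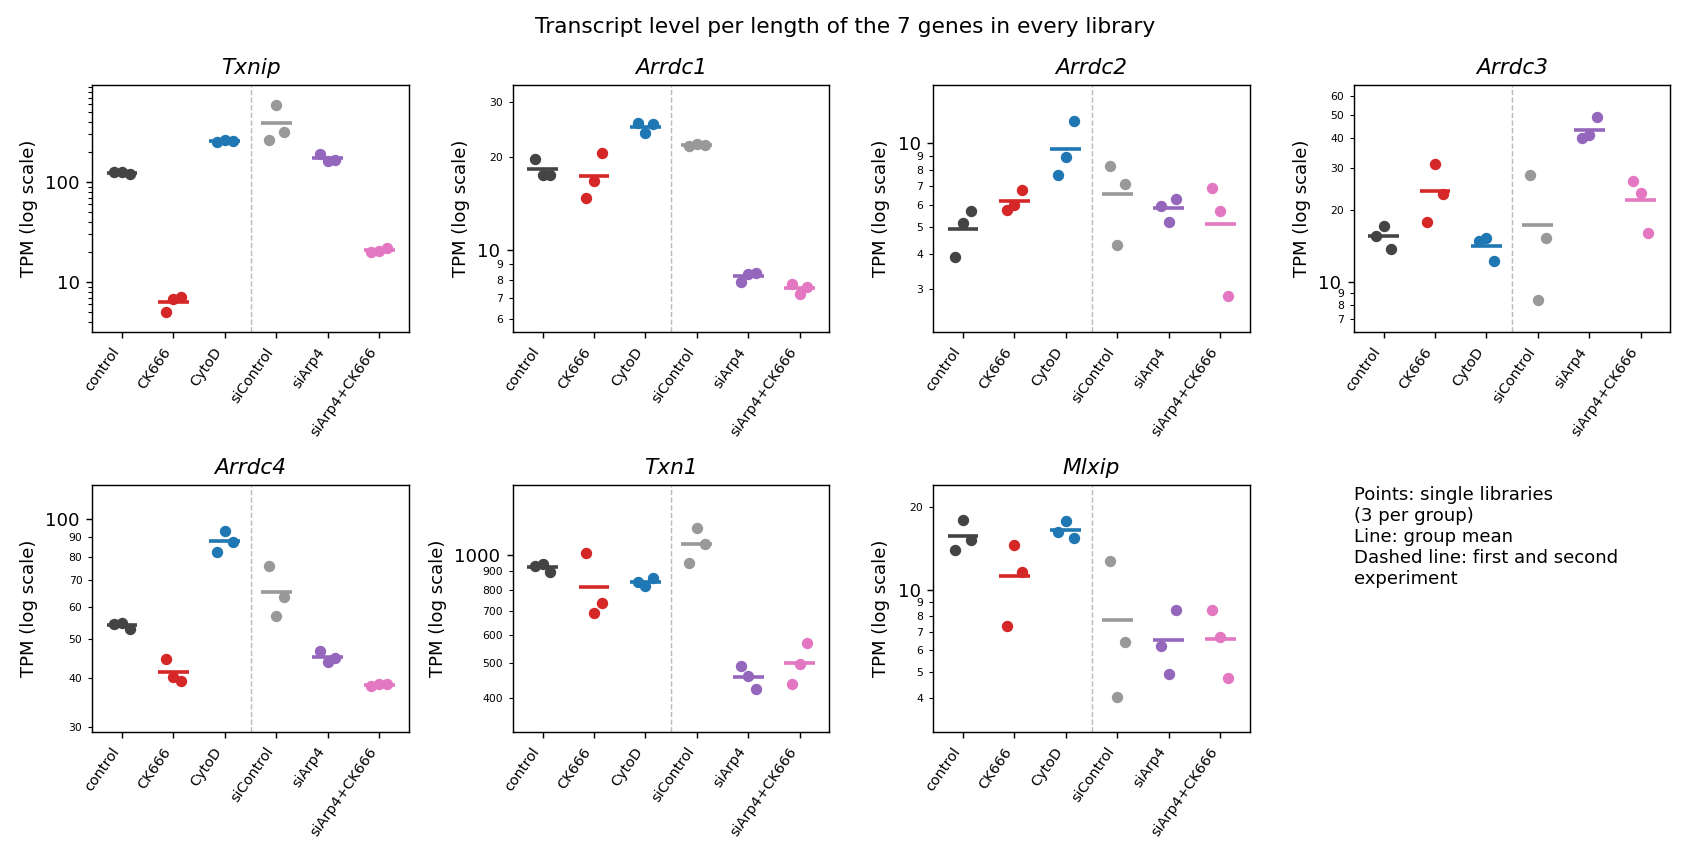
Level of each of the 7 genes in TPM on a log scale, with 1 point per library, a line at the group mean, and a dashed line between the experiments. Txnip is lowest in both groups given CK666 (means of 6.29 and 20.9 TPM), while Arrdc3 is highest in siArp4 (mean of 43.3 TPM) and Txn1 lowest in siArp4 and siArp4+CK666 (458.6 and 501.9 TPM).

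Txnip (ENSMUSG00000038393.14, chr3:96557957-96561883, plus strand of GRCm38) was nearly lost under CK666. Its normalized counts were 2535, 2421 and 2395 in control and 116.9, 126.4 and 139.5 in CK666. The groups were far apart, and CK666 left 5.21% of the control level, a log2 fold change of -4.26 (SE 0.11). CytoD moved it the other way, to 4797, 5065 and 5077, which was 2.03-fold the control level (log2 fold change 1.02, SE 0.087). That value lies just inside the fold change minimum of 1 on the log2 scale. Between the treatments the difference was 39.0-fold (log2 fold change -5.29 for CK666 against CytoD). Among 10271 genes with a mean of at least 100 normalized counts, Txnip had the second largest fall in CK666 against control, and rank 360 from the top in CytoD against control. A further gene, Gm15441, lies opposite Txnip on the other strand and could take or give reads in these unstranded libraries, and its mean was 16.4 counts against 3750 for Txnip.

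The second experiment, whose cells were not those that led to the choice of Txnip, gave a reading of its response to CK666 in other cells. Since the members were chosen with earlier results of these data known, it is not an independent test. Normalized counts were 4470, 3894 and 3717 after the Arp4 siRNA alone and 407.1, 462.6 and 561.7 after siRNA and CK666. All knockdown cells given CK666 lay below all those without it, by 8.44-fold (log2 fold change -3.08, SE 0.44, DESeq2 adjusted p 2.65e-10). This was the rank of 12 among falls of 10187 genes with a mean of at least 100 counts. The same comparison without each library in turn gave log2 fold changes of -3.21 to -2.97, and -3.06 with the length trend removed. In the same libraries the fat cell markers were higher in siArp4+CK666 (6.51 to 10.1 CPM) than in siArp4 (0.206 to 1.01), while the stem cell markers overlapped, and their part in this result was not tested. Against siControl, the fall in siArp4+CK666 was 23.6-fold (log2 fold change -4.56, SE 0.44, DESeq2 adjusted p 4.95e-23), and without siControl replicate 2 the log2 fold change was -3.76. Against cells without the inhibitor, Txnip thus fell by 4.26 on the log2 scale in untransfected cells and fell by 3.08 in siArp4 cells. The difference of 1.18 (SE 0.50) contains the contrast that led to the choice of Txnip and is given without a test.

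The effect of the Arp4 siRNA alone on Txnip was less firm. Normalized counts in siControl were 4993, 20810 and 7927, against 4470, 3894 and 3717 in siArp4. The groups did not overlap, but the lowest siControl value exceeded the highest siArp4 value by little, and replicate 2 was 2.63-fold the next siControl value. Its log2 fold change of -1.48 (SE 0.44, DESeq2 adjusted p 0.00378) passed the threshold of 0.01. Without siControl replicate 2 it was -0.69 (DESeq2 adjusted p 0.0139) and was not called. With the length trend removed as well it was -0.68 (adjusted p 0.000417), under the fold change minimum. Removal of the length trend alone left -1.38 (adjusted p 0.00126) and siControl counts of 5539, 18690 and 7540, so replicate 2 remained highest. The call was also lost when each siArp4 library was left out in turn (adjusted p 0.0128 to 0.0261) and in the quasi-likelihood test of edgeR (adjusted p 0.0322).

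Calls below mean a DESeq2 adjusted p under 0.01 with a log2 fold change beyond 1 in either direction. Of the 7 genes, 1 was called in CK666 against control, where 11% of all tested genes were called, 1 in CytoD against control (9.12% of all) and 1 in CK666 against CytoD (11.8%). In each case that gene was Txnip, whose place there the choice fixed, so nothing is read from it. In the second experiment 4 of 7 were called in siArp4 against siControl (16.2% of all genes), 3 of 7 in siArp4+CK666 against siControl (20.4%) and 2 of 7 in siArp4+CK666 against siArp4 (5.75%). Of the 4 called in siArp4, Txnip, Arrdc1 and Txn1 were lower (9.49% of all genes were called lower) and Arrdc3 was higher (6.69%). siArp4 and siArp4+CK666 share the siControl libraries, so their calls are not independent. In the interaction, the effect of CK666 in siArp4 cells minus that in untransfected cells, 1 of 7 was called (4.42% of all).

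With the adjusted p alone and no fold change minimum, and with Txnip counted in each of the first 3 comparisons by its choice, 2 of the 7 genes passed in CK666 against control (30% of all), 3 in CytoD against control (29.6%) and 4 in CK666 against CytoD (31.8%). In the second experiment 5 passed in siArp4 against siControl (25.1%), 4 in siArp4+CK666 against siControl (29.9%) and 2 in siArp4+CK666 against siArp4 (9.9%), and 1 passed in the interaction (7.82%). Groups that do not overlap are common with 3 libraries each. Txnip was again 1 of them in each comparison of the first experiment, where nothing is read from it. The members without overlap numbered 4 in CK666 against control (47.5% of all genes), 5 in CytoD against control (58.9%), 6 in CK666 against CytoD (49.3%), 6 in siArp4 against siControl (43.5%), 5 in siArp4+CK666 against siControl (43.1%) and 3 in siArp4+CK666 against siArp4 (37.8%).

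**Figure D4:**
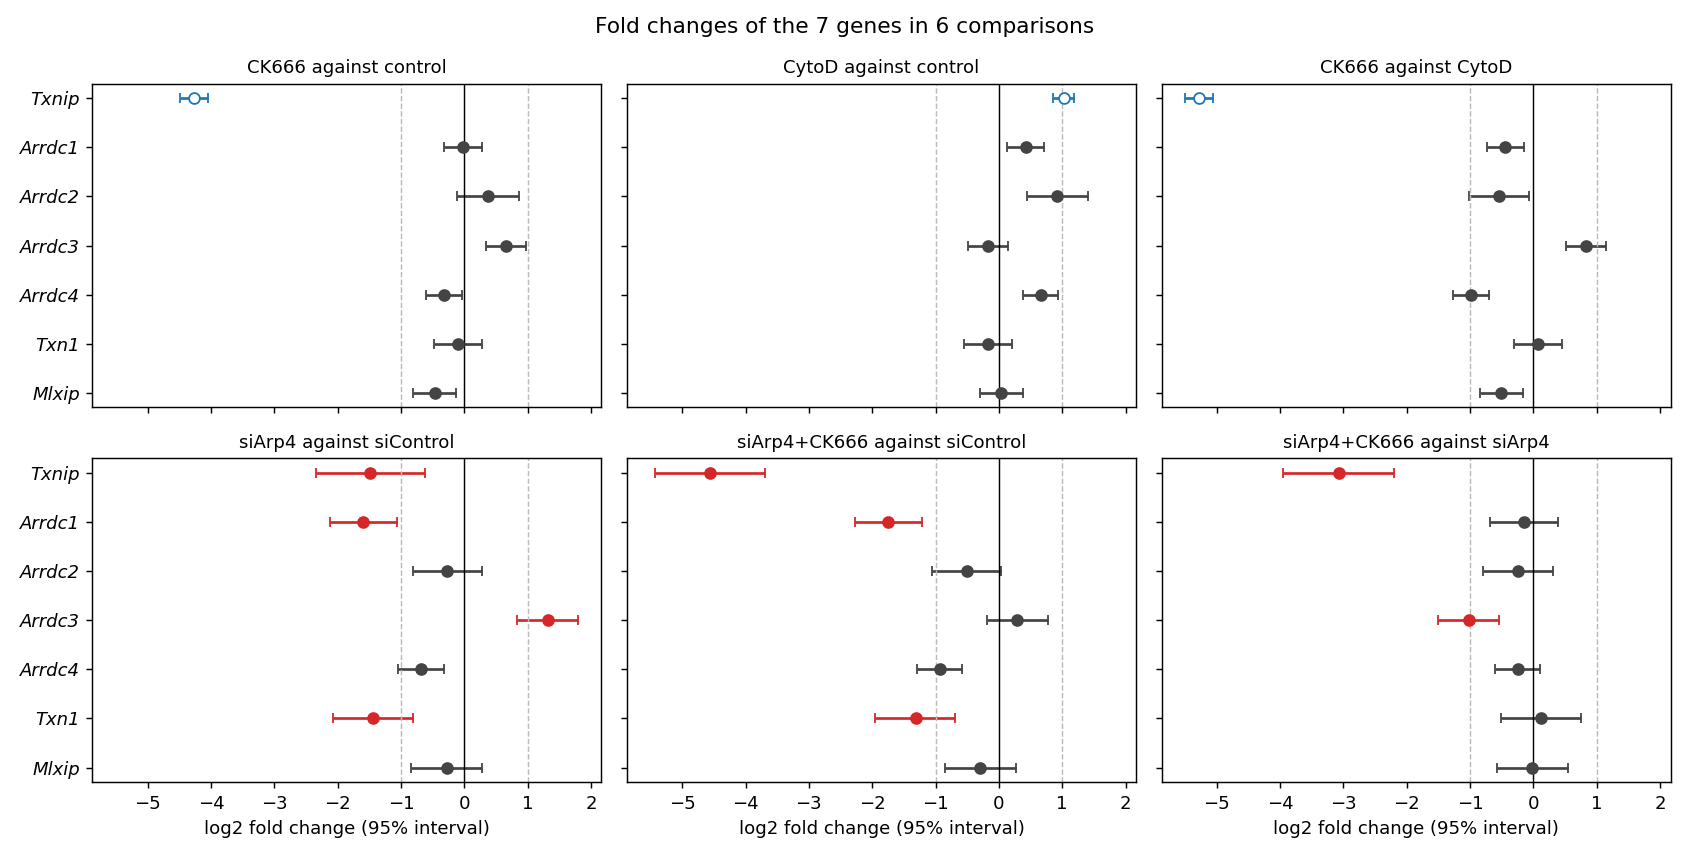
Log2 fold change with its 95% interval (x axis) for the 7 genes (rows) in 6 comparisons. Filled red points were called, filled dark points were not, open blue points are Txnip in the comparisons that led to its choice, and dashed lines mark the fold change minimum. Txnip lies at -4.26 under CK666 and at -3.08 under CK666 in siArp4 cells, while Arrdc3 lies above 0 in the first of these comparisons and below 0 in the second.

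Arrdc4 (ENSMUSG00000042659.15, chr7:68736995-68749241, minus strand), which like Txnip limits glucose uptake, was higher under CytoD than in control. Normalized counts were 1404, 1371 and 1353 in control and 2013, 2302 and 2230 in CytoD. The groups were separate, and the rise was 1.59-fold (log2 fold change 0.67, SE 0.14, DESeq2 adjusted p 1.6e-05), past the p threshold and under the fold change minimum. In CK666 the counts were 1345, 971.5 and 988.5, of which replicate 1 lay just below the lowest control. The log2 fold change of -0.32 (adjusted p 0.0591) did not pass. CK666 and CytoD differed directly by -0.99 (SE 0.14, DESeq2 adjusted p 3.98e-11), just under the fold change minimum. That difference reached -1.15 without CK666 replicate 1, -1.04 without CytoD replicate 1 and -1.01 with the length trend removed, and was then called.

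In transfected cells Arrdc4 was at 1858, 2592 and 2036 in siControl, 1413, 1348 and 1277 after the Arp4 siRNA alone and 1008, 1117 and 1267 after siRNA and CK666. Every siControl value lay above every value of the other groups. Against siControl the log2 fold change was -0.68 for siArp4 (SE 0.18, adjusted p 0.00105) and -0.93 for siArp4+CK666 (SE 0.18, adjusted p 2.7e-06), both under the fold change minimum. Without siControl replicate 1 or without siArp4+CK666 replicate 3, the latter was called (-1.03 and -1.02). Without siControl replicate 2 the values were -0.54 and -0.79, with the length trend removed -0.65 and -0.87, and with both changes -0.49 and -0.72, all past the p threshold (adjusted p at most 0.00289). CK666 in siArp4 cells gave -0.25 (95% interval -0.61 to 0.11, adjusted p 0.453), against -3.08 for Txnip in the same libraries.

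Arrdc3 (ENSMUSG00000074794.10, chr13:80883384-80896042, plus strand), an adaptor known for the ubiquitination of the beta-adrenergic receptor and for a part in energy use, responded to CK666 in opposite directions in the 2 experiments. In untransfected cells its counts were 623.9, 663.1 and 545.4 in control and 834.1, 1168 and 907.6 in CK666. Every CK666 value exceeded every control value, with a log2 fold change of 0.67 (SE 0.16, DESeq2 adjusted p 0.000194), under the fold change minimum. CytoD left it at 560.1, 587.6 and 483.2, within the range of control or just below it (log2 fold change -0.17, 95% interval -0.49 to 0.15, adjusted p 0.446).

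The Arp4 siRNA raised Arrdc3. Counts were 1060, 591 and 756.5 in siControl and 1881, 1961 and 2159 in siArp4, and the lowest siArp4 value was well above the highest siControl value. The rise was 2.49-fold (log2 fold change 1.32, SE 0.25, DESeq2 adjusted p 9.65e-07). It was 1.13 to 1.56 on the log2 scale without each library in turn, and 1.17 with siControl replicate 2 left out and the length trend removed. When CK666 was added, the counts were 1076, 1057 and 814.6, all below siArp4 and overlapping siControl. The fall against siArp4 was 2.04-fold (log2 fold change -1.03, SE 0.25, DESeq2 adjusted p 0.000481). This call sat at the fold change minimum and was lost without siArp4 replicate 2 (adjusted p 0.0107), without siArp4 replicate 3 (-0.97), without siArp4+CK666 replicate 3 (-0.91) and in edgeR (adjusted p 0.0193). With the length trend removed it was -1.13 (adjusted p 1.15e-10).

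The effect of CK666 on Arrdc3 in siArp4 cells minus its effect in untransfected cells was -1.70 (SE 0.28, DESeq2 interaction over 18 libraries, adjusted p 5.45e-08). It was the 1 called interaction among the 7 genes. It stayed between -1.80 and -1.54 when each library was left out, and was -1.82 with the length trend removed. Since only the knockdown cells were transfected, Arp4 loss and transfection cannot be told apart in this contrast. Among 10315 genes with a mean of at least 100 counts, Arrdc3 ranked 85 from the lowest interaction value.

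**Figure D5:**
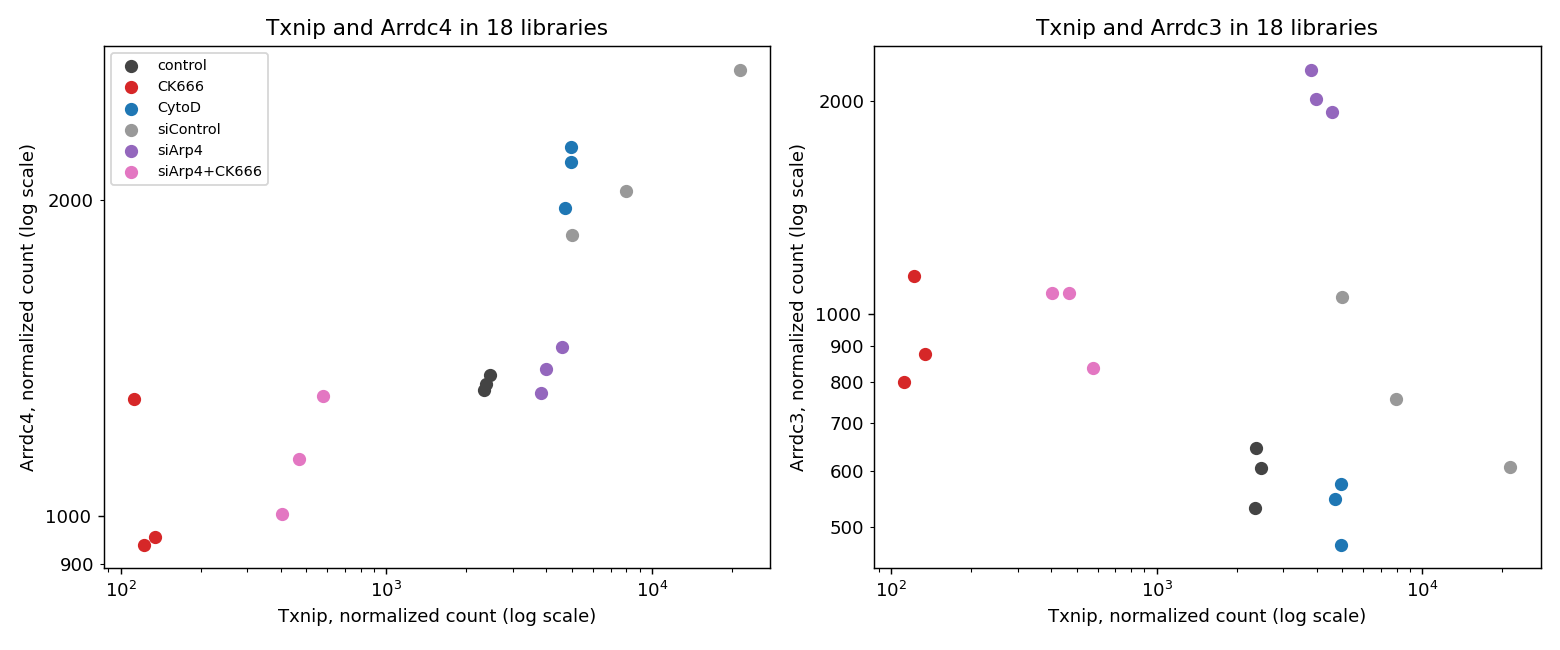
Normalized counts (log axes, size factors of all 18 libraries) of Txnip against Arrdc4 (left) and of Txnip against Arrdc3 (right), with 1 point per library coloured by group. Libraries with more Txnip have more Arrdc4 (Pearson r of the log2 values 0.833 over 18 libraries), whereas Arrdc3 (r = -0.129) is highest in siArp4, where Txnip is also high.

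Arrdc1 (ENSMUSG00000026972.15, chr2:24925352-24935252, minus strand), which recruits Tsg101 to the plasma membrane and drives the budding of small vesicles, fell with Arp4. Counts of 328.6, 625 and 433.4 in siControl compared with 149.1, 160.9 and 149.3 after the Arp4 siRNA alone and with 127.9, 130.7 and 154.9 after siRNA and CK666. Both knockdown groups were clear of siControl and overlapped each other. The fall was 3.02-fold in siArp4 (log2 fold change -1.59, SE 0.27, DESeq2 adjusted p 5.19e-08) and 3.35-fold in siArp4+CK666 (-1.74, SE 0.27, adjusted p 1.59e-09). With siControl replicate 2 left out and the length trend removed, the log2 fold changes were -1.28 and -1.37, and both calls held. The effect of CK666 in siArp4 cells did not pass (-0.15, 95% interval -0.69 to 0.39, adjusted p 0.837).

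In untransfected cells Arrdc1 was at 316.3, 271.7 and 278.4 in control, 278, 252.8 and 321.8 in CK666 and 389, 367.8 and 403.9 in CytoD. The CytoD group lay above both others. CytoD gave a log2 fold change of 0.42 against control (adjusted p 0.0147), which did not pass, and CK666 lay 0.44 below CytoD (SE 0.15, DESeq2 adjusted p 0.00917), which passed without reaching the fold change minimum. That pass was lost in edgeR (adjusted p 0.0196), with TMM size factors (0.0141), with a replicate block (0.0239), in a fit of these 2 groups alone (0.0379) and when any library except CK666 replicate 3 was left out (adjusted p 0.0166 to 0.0635). CK666 against control was -0.02 (95% interval -0.32 to 0.27, adjusted p 0.93).

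Arrdc2 (ENSMUSG00000002910.11, chr8:70835129-70839720, minus strand), a less studied adaptor, had the lowest mean count of the 7 over all libraries. Counts were 81.3, 104.2 and 116.9 in control, 140.5, 116.2 and 136.7 in CK666 and 150.9, 176.2 and 245.2 in CytoD. All CytoD values exceeded all others of that experiment. The log2 fold change for CytoD was 0.92 (SE 0.25, DESeq2 adjusted p 0.000867), and it was called at 1.04 without control replicate 3 and at 1.06 without CytoD replicate 1. It did not pass the p threshold without control replicate 1 (0.79, adjusted p 0.0183) or without CytoD replicate 3 (0.70, adjusted p 0.0249). CK666 gave 0.38 (adjusted p 0.23). In transfected cells it was at 162.6, 157.2 and 183.1 in siControl, 144.9, 128.5 and 144.3 after the Arp4 siRNA alone and 145.9, 132.6 and 74.8 after siRNA and CK666. Both knockdown groups lay below siControl, by -0.27 (adjusted p 0.492) and -0.51 (adjusted p 0.138), and neither passed. Without siControl replicate 2 the values were -0.32 and -0.56, with the length trend removed -0.24 and -0.45, and with both changes -0.31 and -0.52, and none passed.

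Txn1 (ENSMUSG00000028367.5, chr4:57943373-57956411, minus strand), the cytosolic thioredoxin that reduces protein disulfides and that Txnip inhibits, was lower in Arp4 knockdown cells. Counts of 6018, 14070 and 8896 in siControl compared with 3890, 3678 and 3142 after the Arp4 siRNA alone and with 3006, 3757 and 4874 after siRNA and CK666. Every siControl library was above every knockdown library. The fall was 2.71-fold in siArp4 (log2 fold change -1.44, SE 0.32, DESeq2 adjusted p 6.61e-05) and 2.49-fold in siArp4+CK666 (-1.32, SE 0.32, adjusted p 0.000234).

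Txn1 has the shortest exons of the 7 genes, and the size of its fall moved when the length trend was taken out. Once the trend was removed, the siControl counts of Txn1 became 8488, 7891 and 7731, and their coefficient of variation was 4.96%. The log2 fold change was then -1.14 in siArp4 (adjusted p 1.73e-35), which kept its call, and -0.91 in siArp4+CK666 (adjusted p 7.91e-23), which fell under the fold change minimum. Without siControl replicate 2 and with no other change, the latter was -0.95. Txn1 counts of 6251, 6118 and 5962 in control, 7967, 4352 and 4830 in CK666 and 5328, 5276 and 5703 in CytoD gave no passing change, with 95% intervals of -0.48 to 0.29 for CK666 and -0.55 to 0.21 for CytoD. CK666 replicate 1 was high there, and it was also the library with the strongest excess of short genes in that experiment (0.67). With the length trend removed, Txn1 was 0.29 lower on the log2 scale in both CK666 (adjusted p 0.00244) and CytoD (adjusted p 0.00298).

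Mlxip (ENSMUSG00000038342.15, chr5:123394798-123457932, plus strand), which encodes MondoA, was called in none of the 7 comparisons. Counts were 743.9, 927 and 801 in control, 459.8, 725.8 and 602.6 in CK666 and 816.2, 911.9 and 809.9 in CytoD. CK666 values lay below all control values, but the log2 fold change of -0.47 (SE 0.17, DESeq2 adjusted p 0.0218) did not pass, and CytoD gave 0.04 (95% interval -0.30 to 0.38). With the length trend removed, the CK666 value was -0.41 and passed the p threshold (adjusted p 0.00329), still under the fold change minimum. It also passed with a replicate block (-0.48, adjusted p 0.00445) and without CK666 replicate 2 (-0.63, adjusted p 0.000622). CK666 against CytoD gave -0.51 with separate groups and did not pass (adjusted p 0.0116). It passed with the length trend removed (-0.54, adjusted p 6.78e-05) and with a replicate block (-0.52, adjusted p 0.00155). In transfected cells Mlxip was at 639.6, 378.5 and 424 in siControl, 387.4, 311 and 495.9 after the Arp4 siRNA alone and 456.8, 399.7 and 321.4 after siRNA and CK666. These groups overlapped, and the adjusted p was 0.443 or more in each comparison. Against siControl, leaving out its replicate 2 gave -0.42 for siArp4 and -0.44 for siArp4+CK666, removal of the length trend gave -0.37 and -0.52, and both changes gave -0.38 and -0.52. None passed, the smallest adjusted p being 0.0131.

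Of the MondoA partners and related factors listed around Mlxip (11 genes of the Mondo, Mlx and Max network, 10 tested), 1 was called in CK666 against control (11% of all tested genes) and 4 in CytoD against control (9.12%). Under CK666, Mxd3, a repressor that pairs with Max, fell by 2.35 (DESeq2 adjusted p 1.93e-30). Under CytoD, Myc fell by 1.77 (adjusted p 5.16e-41), while the Myc antagonists Mxd4 (1.56, adjusted p 9.98e-49) and Mxd1 (1.18, adjusted p 2.2e-10) rose. The fourth, Mlxipl, which encodes the MondoA relative ChREBP, had a mean of 6.19 counts and is too low to place. The median of the network was 0.10 under CK666 and 0.24 under CytoD, against 0.01 over all tested genes in both. In siArp4, Myc rose by 2.07 (adjusted p 4.61e-27) and Mxd3 fell by 2.62 (adjusted p 1.28e-08), with the other 8 tested genes not called (16.2% of all). In this and the lists that follow, the calls in siArp4 printed with a log2 fold change were refitted without siControl replicate 2. All of them held, with the length trend kept or removed.

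Known carbohydrate response genes were listed to set beside Txnip and Arrdc4 (14 genes, 11 tested). None of the 11 was called in CK666 against control (11% of all tested genes), where 1 rose and 2 fell at an adjusted p under 0.01 with no fold change minimum. Their median log2 fold change there was -0.15 against 0.01 for all genes. CytoD changed 3 (9.12% of all), in that it raised Khk, which phosphorylates fructose (1.71, DESeq2 adjusted p 1.35e-06), and lowered Hk2, which phosphorylates glucose (-1.02, adjusted p 6.17e-15, and -0.97, not called, with the length trend removed), and Pfkfb3, which stimulates glycolysis (-1.18, adjusted p 8.18e-08). In siArp4, 4 were called (16.2% of all): Acly (1.83), Rgs16 (1.70) and Hk2 (1.32) rose and Khk fell by 4.38 (adjusted p 5.27e-13). The call of Hk2 was lost with the length trend removed (1.22, adjusted p 0.0118) and in edgeR (adjusted p 0.0264). None of the 11 was called between siArp4+CK666 and siArp4 (5.75% of all), the comparison in which Txnip fell 8.44-fold.

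Glucose carriers, among them known cargo of Txnip and Arrdc4, gave at most 2 calls in a comparison (10 genes, 5 to 7 tested). In the first experiment 1 of 7 was called in CK666 against control (11% of all tested genes) and none of 6 in CytoD against control (9.12%). CK666 against CytoD gave 1 of 7 (11.8%). Against siControl, siArp4 gave 1 of 6 (16.2%) and siArp4+CK666 gave 2 of 6 (20.4%), namely lower Slc2a6 (-2.277) and Slc2a10 (-1.455). siArp4+CK666 against siArp4 gave 1 of 5 (5.75%). Slc2a10 was lower in CK666 against control (-1.35, DESeq2 adjusted p 9.46e-06) and in siArp4+CK666 against siArp4 (-1.09, adjusted p 0.000258, in edgeR 0.012), and Slc2a6 was lower in siArp4 (-1.77, adjusted p 2.73e-07). Slc2a1, the widespread carrier of glucose, was 2-fold higher in CK666 than in CytoD (log2 fold change 1.001, adjusted p 1.51e-19), a call lost with the length trend removed (0.95). Against control it was at 0.00056 in CK666 (adjusted p 0.998) and at -1.0 in CytoD (adjusted p 2.23e-19), so the difference was a lower level in CytoD.

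The thioredoxin and peroxiredoxin system (17 genes, all tested) held 6 calls in siArp4 against siControl, of which 2 rose (6.69% of all genes tested) and 4 fell (9.49%). Srxn1, which repairs overoxidized peroxiredoxins (1.52, DESeq2 adjusted p 8.9e-37), and Prdx1 (1.36, adjusted p 2.4e-18) rose. Prdx2 fell by 2.45 (adjusted p 1.62e-05), Prdx4 fell by 2.41 (adjusted p 2.34e-11), Txndc17 fell by 1.34 and Msrb3 fell by 1.17. In siArp4+CK666 against siControl, 3 rose and 5 fell (20.4% of all called), with Srxn1 at 3.09 (adjusted p 2.43e-154). CK666 raised Srxn1 also in untransfected cells (1.80, adjusted p 2.49e-131) and within siArp4 cells (1.58, adjusted p 1.32e-40), opposite in direction to Txnip in each of these comparisons. In CK666 against control 2 of 17 were called (11% of all), the other being Msrb3, which was lower, as Txnip was. In siArp4+CK666 against siArp4 2 of 17 were called (5.75%), Srxn1 and Txnrd1, both higher. CytoD against control gave 1 of 17 (9.12%). Txnrd1, the reductase that recharges Txn1, fell under CytoD (-1.20, adjusted p 9.72e-50), where Txnip was higher, and rose in siArp4+CK666 against siArp4 (1.07, adjusted p 0.00349), a call lost in edgeR (adjusted p 0.0415) and with the length trend removed (0.96). The siControl counts of Prdx2 ran from 4167 to 23250, and with siControl replicate 2 left out and the length trend removed its fall in siArp4 was -1.59 (adjusted p 9.04e-07).

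Ubiquitin ligases and partners that alpha-arrestins recruit (11 genes, 10 or 11 tested) gave 1 call under CK666 (11% of all tested genes) and none under CytoD (9.12%). Smurf1 rose by 1.02 under CK666 (DESeq2 adjusted p 6.46e-13). In siArp4+CK666 against siControl 3 of 11 were called (20.4% of all). Nedd4l (1.87, adjusted p 1.32e-18) and Smurf1 (1.08, adjusted p 1.2e-05) were higher there, and Smurf2 was lower (-1.06, adjusted p 0.00398). Nedd4l was the 1 call of 11 in siArp4+CK666 against siArp4 (1.05, adjusted p 5.63e-06, 5.75% of all). Smurf2 was the 1 call of 11 in siArp4 against siControl (-1.22, adjusted p 0.000927, 16.2% of all). The call of Nedd4l against siArp4 was lost with the length trend removed (0.90), and that of Smurf2 in siArp4 was lost in edgeR (adjusted p 0.0135). The 6 other genes with an arrestin fold (5 tested) held 2 calls in CK666 against control (11% of all), Arrb1 at -1.71 (adjusted p 7.27e-21) and Arrb2 at 1.09 (adjusted p 0.00565), of which Arrb2 was not called with the length trend removed (0.96) or in edgeR (adjusted p 0.0286). They encode the beta-arrestins, which uncouple G protein-coupled receptors. None of the 5 was called in siArp4 against siControl (16.2% of all), siArp4+CK666 against siControl (20.4%) or siArp4+CK666 against siArp4 (5.75%).

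Genes listed as partners of Txnip or as parts of the inflammasome it can bind (12 genes, 7 tested) included Ddit4, an inhibitor of mTORC1 that Txnip is known to stabilize as a protein. Ddit4 rose under CK666 by 1.56 (DESeq2 adjusted p 6.1e-28) and was also higher under CytoD (0.69, adjusted p 4.57e-06, under the fold change minimum), so its sign was opposite to that of Txnip in the former and the same in the latter. Its interaction was -1.32 (adjusted p 5.39e-08), the same sign as that of Arrdc3. Kpna2, the importin that carries Txnip into the nucleus, fell under CK666 (-1.12) and under CytoD (-1.27), and Casp1 rose under CytoD (2.13, adjusted p 2.04e-09). Of the 7 tested, 2 were called in CK666 against control (11% of all tested genes) and 2 in CytoD against control (9.12%). None was called in siArp4 against siControl (16.2%) or in siArp4+CK666 against siArp4 (5.75%). In siArp4+CK666 against siControl 1 of 7 was called (20.4%), as was 1 of 7 in the interaction (4.42%). Of FOXO factors and their targets (12 genes, 11 tested), 1 was called in CK666 against control (11% of all) and 2 in CytoD against control (9.12%). Sesn3 (1.59, adjusted p 4.94e-15) and Sesn1 (1.09, adjusted p 6.56e-10) rose under CytoD, and Bcl6 rose under CK666 (1.33, adjusted p 2.52e-14). In siArp4 against siControl 3 of 11 were called (16.2%). Bcl6 (1.21, adjusted p 6.61e-08) and Cited2 were higher there, and Sesn1 was lower. In siArp4+CK666 against siControl, Bcl6 was again higher and Sesn1 lower (2 of 11, 20.4%). Irs2, an adaptor of the insulin receptor, rose with CK666 in siArp4 cells (1.59, adjusted p 1.23e-05), the 1 call of 11 there (5.75%).

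The genes most like Txnip over the 18 libraries, by Pearson r of log2 normalized counts among 9876 genes with a mean of at least 100, were Osr1 (0.977), Cdc42ep2 (0.948), Pcolce (0.943), Cdkn2c (0.932) and Maged2 (0.93). These libraries share treatments and scaling, so the values are descriptive. Osr1, a transcription factor of connective tissue and kidney precursors, had log2 fold changes of -2.29 in CK666 against control, -1.15 in siArp4+CK666 against siArp4 and 0.63 in CytoD against control. Pcolce enhances procollagen cleavage, Cdkn2c inhibits the cyclin D kinases, and Cdc42ep2 binds the GTPase Cdc42. By Spearman's rho the leading genes were others (Mvd, Dkk3, Arrdc4, Rnase4 and Jup), and Arrdc4 then had rho 0.942, while by Pearson r it ranked 86 at 0.833. The genes most like Arrdc4 by Pearson r were Mvd (0.93), Nsg1 (0.928), Pnp (0.928), Ap5s1 (0.926) and Tango2 (0.914), where Mvd is an enzyme of sterol synthesis and Pnp breaks down purine nucleosides. Of the other members, Arrdc1 (0.435), Arrdc2 (0.396), Txn1 (0.386), Mlxip (0.078) and Arrdc3 (-0.129) were less like Txnip than Arrdc4 was.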

How the data were processed

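Total RNA of 18 cultures was sequenced as unstranded pairs. Per the labels and the methods, the authors quantified reads with Salmon 1.2.1 and GENCODE vM25 (GRCm38) and deposited expected counts per gene, unscaled; the step from transcripts to genes is not given in the sources used here. Estimated counts were rounded (at most 277 per library). Each experiment's 9 libraries were fitted by group with the Wald test of DESeq2 1.42.0 (R 4.3.3, two-sided, Benjamini-Hochberg adjusted over all tested genes, filtering at 0.01, no shrinkage). A call needed an adjusted p under 0.01 and an absolute log2 fold change over 1. The interaction used 18 libraries. TPM used GENCODE vM21 exon lengths. Counts are normalized within an experiment. p-values measure the spread between these cultures, and depth sets counting error only.

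The members and all lists were chosen with earlier results of these data known. Named list genes are called changes, not always all of a list and comparison, with a few uncalled values set beside them. Likeness names the top 5. Alternatives were edgeR 4.0.16, TMM size factors, a filter of 10 counts in 3 libraries, a replicate block, leaving out each library, fitting only the groups compared, other fold rules and, chosen after seeing the data, removal of each library's length trend, taken as the median log2 ratio by exon length. Tested on simulated data over 54347 genes, DESeq2 recovered 91% and 99% of genes changed by 1.5 and 3 on the log2 scale in CK666 against control, 83% and 99% in siArp4 against siControl and 77% and 96% in the interaction, with 3, 25 and 11 false calls. edgeR recovered 86% and 98%, 41% and 94%, and 58% and 93% in the same order, with 0 false calls. The changed genes were drawn only from genes above a minimum mean count, so recovery at low counts was not measured. The counts were simulated without a length trend, unlike those of siControl. Promoter windows are from RefSeq on GRCm38.p6, and all 7 members matched.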

Additional observations from a re-analysis of the deposited data

Results flagged for a closer look

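The response of Arrdc3 to CK666 differed between the experiments. It was 0.67 on the log2 scale in untransfected cells and -1.03 in siArp4 cells, and the difference of -1.70 (SE 0.28, DESeq2 interaction, adjusted p 5.45e-08) was itself past the threshold. All 3 CK666 libraries lay above all 3 control libraries, and all 3 siArp4+CK666 libraries lay below all 3 siArp4 libraries. Arp4 loss and transfection cannot be told apart in this contrast.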

How the results depend on the processing

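Genes called in CK666 against control, CytoD against control, CK666 against CytoD, siArp4 against siControl, siArp4+CK666 against siControl, siArp4+CK666 against siArp4 and the interaction numbered 1599, 1251, 1778, 2494, 3150, 811 and 597. With no fold change minimum they were 4381, 4067, 4779, 3867, 4602, 1395 and 1056, and in testing for changes beyond 2-fold they were 349, 147, 438, 431, 792, 145 and 58. edgeR called 466 in siArp4+CK666 against siArp4 and 384 in the interaction. Without each library in turn the ranges were 1433 to 1688, 1104 to 1280, 1591 to 1813, 1968 to 3198, 2618 to 4019, 575 to 926 and 469 to 759.

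Of the 7 genes, those called with no fold change minimum were 2 in CK666 against control, 3 in CytoD against control and 4 in CK666 against CytoD. In the test for changes beyond 2-fold they were 0 in CytoD against control, in siArp4 against siControl and in the interaction, and 1 in each of the other comparisons. edgeR called 1 in siArp4+CK666 against siArp4. The length trend removed gave 2 in CK666 against CytoD (Arrdc4 added), and with siControl replicate 2 also left out 2 in the interaction, where the second is Txnip, whose value there contains the contrast that chose it and is no test. Without each library in turn the counts were 1 to 1 in CK666 against control, 1 to 2 in CytoD against control, CK666 against CytoD, siArp4+CK666 against siArp4 and the interaction, 3 to 4 in siArp4 against siControl and 2 to 4 in siArp4+CK666 against siControl.

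The fold changes that turned sign were none of them called as reported. In CK666 against control, leaving out a library gave Arrdc1 -0.11 to 0.061 (0.0468 without control replicate 1) and Txn1 -0.41 to 0.073 (0.0192 without CK666 replicate 3), and TMM gave Arrdc1 0.00274. In CytoD against control, Mlxip ran from -0.032 to 0.13 (-0.0222 without CytoD replicate 2). In CK666 against CytoD, Txn1 ran from -0.24 without CK666 replicate 1 (DESeq2 adjusted p 0.00193) to 0.24, and was -0.00455 with the length trend removed. In siArp4+CK666 against siArp4, Txn1 ran from -0.078 to 0.28 and Mlxip from -0.17 to 0.17 (0.104 without siArp4+CK666 replicate 3). In the interaction, Arrdc4 ran from -0.039 to 0.24 (-0.0168 and -0.0108 without CK666 replicates 2 and 3), and Arrdc1 was 0.00337 with the length trend removed and 0.0136 with siControl replicate 2 also left out. The cause was not tested.

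A replicate block left the 7 genes' calls at 1, 1, 1, 4, 3, 2 and 1, the same genes as without it. Same-numbered libraries did not deviate together in every pair (correlations -0.103 to 0.11 in the first experiment and -0.348 to 0.594 in the second), so the numbers were not read as pairs. The length of the longest transcript in place of all exons moved 25 of 42 group levels by more than 1 SD. The paired E-box was found in 0 of 7 promoters as exact letters and in 1 with a base of each E-box free. Counts were lowest for Arrdc2 and, in CK666, for Txnip, so counting error is largest there in proportion.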
